A study of Homo sapiens with 4 samples.

Results

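The miR-320 family comprised 5 of the 1733 miRNAs counted in each library, namely hsa-miR-320a, hsa-miR-320b, hsa-miR-320c, hsa-miR-320d and hsa-miR-320e. The rows were chosen by name, and no count decided which rows belong to the family. The family itself was selected on read counts and ratios already seen in these libraries, so its values are given as a description and no test was run on them. Small RNA had been sequenced from 4 cell populations with 1 library each. Hep3B and Huh7 are human hepatoma cell lines (HCC cells), and Hep3B-C and Huh7-C are the stem-like lines (hepatic cancer stem cells, HCSCs) that were cultured from them, by a procedure that the sources used here do not detail. No treatment, dose or time is named for any of the 4. Each HCSC line was compared with the HCC line it came from, to ask which miRNAs differ between HCSCs and HCC cells. Without replicate libraries no difference has a replicate check, and the intervals below hold counting error only, since reads are not independent molecules.

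MiRNAs are small RNAs that pair with messenger RNAs mainly through their seed, bases 2 to 8, and reduce the output of those messages. Most are cut from a long transcript in the nucleus by Drosha and then from a hairpin in the cytoplasm by Dicer. The miR-320a hairpin is the textbook exception, because its 5′ end is the capped start of its own short transcript, so that Drosha is not needed, and Dicer releases the mature miRNA from the 3′ arm. miR-320 is known from work on glucose metabolism and on the growth of several tumours. Read counts show how much of a mature miRNA was sequenced and not by which route it was made, so the Drosha independence in the family's name was not examined.

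The mature sequences below carry the main caution for these counts, since they show how little separates the members. They come from RefSeq (GRCh38.p14), in which 4 of the 5 members were matched by name, and hsa-miR-320a is named only. The seed is in capitals and every sequence runs 5′ to 3′. hsa-miR-4429, which is no member, is shown because it was the other miRNA of the table with the seed AAAGCUG.
hsa-miR-320b: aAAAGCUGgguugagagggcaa
hsa-miR-320c: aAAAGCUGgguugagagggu
hsa-miR-320d: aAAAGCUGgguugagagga
hsa-miR-320e: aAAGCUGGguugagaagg
hsa-miR-4429: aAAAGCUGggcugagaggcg

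hsa-miR-320b (22 nt), hsa-miR-320c (20 nt) and hsa-miR-320d (19 nt) had the same seed and the same first 18 bases. The first 19 bases were also common to hsa-miR-320b and hsa-miR-320c, which differed by C20U, counting from 1 at the 5′ end of hsa-miR-320b. hsa-miR-320d differed from hsa-miR-320b by G19A. A read that ends at base 18 therefore matches all 3 of them, and how such reads had been assigned is not given in the sources used here. hsa-miR-320e (18 nt) started 1 base later, so that its seed was AAGCUGG, and it differed from hsa-miR-320b by G17A in hsa-miR-320b positions. At 18 nt it was as long as the shortest reads that had been kept, because reads under 18 nt had been removed before counting. hsa-miR-4429 (20 nt) had 0 counts in all 4 libraries.

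These 4 members have 7 hairpin genes in RefSeq. One hairpin of each is shown with its mature miRNA in capitals, to show the bases on either side of it. The 4 bases that follow the mature miRNA were the same (ugaa) in MIR320D1 and MIR320E.
MIR320B1: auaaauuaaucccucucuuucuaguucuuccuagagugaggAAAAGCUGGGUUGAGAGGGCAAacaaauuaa
MIR320C1: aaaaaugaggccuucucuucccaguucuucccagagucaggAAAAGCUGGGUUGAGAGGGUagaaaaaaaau
MIR320D1: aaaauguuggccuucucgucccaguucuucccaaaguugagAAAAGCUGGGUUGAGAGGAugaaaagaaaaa
MIR320E: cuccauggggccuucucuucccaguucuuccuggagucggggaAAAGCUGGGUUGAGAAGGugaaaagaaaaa

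In each of the 7 hairpins the mature miRNA lay in the 3′ arm and began between base 41 and base 44. MIR320B1 lies at chr1:116671746-116671817 on the + strand, outside any gene of GENCODE release 29 (GRCh38). MIR320B2 lies at chr1:224257040-224257110 on the - strand, in an intron of NVL on the same strand. MIR320C1 lies at chr18:21683518-21683589 on the + strand and MIR320C2 at chr18:24321675-24321746 on the + strand, in introns of ABHD3 and OSBPL1A, which are read from the opposite strand. MIR320D1 (chr13:40727816-40727887, - strand) and MIR320D2 (chrX:140926160-140926231, - strand) overlap no other gene of that release. MIR320E lies at chr19:46709282-46709354 on the - strand, in an intron of PRKD2 on the same strand. The files hold no positions, and identical mature sequences from MIR320B1 and MIR320B2, from MIR320C1 and MIR320C2 or from MIR320D1 and MIR320D2 give 1 count each.

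The libraries differed in how much of them was miRNA, and this sets the scale of every level below. The miRNA counts summed to between 1739278 (Hep3B) and 5741567 (Huh7). In Hep3B they made up 10.4% of the total reads, against 35.2% for Hep3B-C, 37.8% for Huh7-C and 54.1% for Huh7. Levels are therefore given on 2 scales, as TPM (counts per 1000000 total reads) and as CPM (counts per 1000000 miRNA counts). The study names TPM as its normalisation but does not state which total it divided by. Dividing by the total reads it lists is a choice made here. hsa-miR-122, which marks hepatocytes, had 397 counts in Hep3B and between 144814 and 489443 in the other libraries. The epithelial markers hsa-miR-192 and hsa-miR-194 were not low in Hep3B. Their summed level there was 105884 CPM, above the 73294 CPM of Hep3B-C. For the Huh7 line it was 128688 CPM (HCC cells) and 122133 CPM (HCSCs). Of 8 markers of blood, endothelial, fibroblast and smooth muscle cells, 4 to 6 were detected in a library, with a sum of 404 to 714 CPM, and hsa-miR-150 was at 0 in all 4 libraries. Within that sum the blood cell marker hsa-miR-451 set Huh7 apart, with 773 counts there, 2 in Huh7-C and 1 each in Hep3B and Hep3B-C. Their part in the results was not tested.

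hsa-miR-320a made up most of the family in every library. The Hep3B library had 2617 counts of it and Hep3B-C had 9717, while Huh7 had 2957 and Huh7-C 1989. Its rank among the 1733 miRNAs was 50 in Hep3B, 46 in Hep3B-C and 65 in both libraries of the Huh7 line. Its share of the family's counts was 92.4% in Hep3B (95% Clopper-Pearson interval 91.4% to 93.4%) and 89.4% in Hep3B-C (88.8% to 90.0%). In the Huh7 pair its share was 96.7% in Huh7 (96.0% to 97.3%) and 93.6% in Huh7-C (92.5% to 94.6%). The share was thus lower in each HCSC library than in its HCC library, and the intervals of a pair, which hold counting error only, did not overlap. The ratio of hsa-miR-320b to hsa-miR-320d to hsa-miR-320a, given further below, uses the same counts and is not a separate observation.

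The next members followed in the same order in all 4 libraries. hsa-miR-320b had 93 counts in Hep3B and 507 in Hep3B-C, against 51 in Huh7 and 58 in Huh7-C. hsa-miR-320c had 71, 393, 30 and 47 counts in the same order of libraries, and hsa-miR-320d had 49, 254, 19 and 31. Hep3B-C was the highest library for each of these members and Huh7 the lowest. hsa-miR-320e had 1 count in Hep3B and 0 in the other libraries, so it was not detectable above the level that 3 counts set. In Hep3B-C, where the family was sequenced deepest (10871 counts), a count of 0 allows hsa-miR-320e a share of up to 0.0276% of the family.

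In TPM, hsa-miR-320a was at 156 in Hep3B (95% Poisson interval 150.0 to 162), 629 in Hep3B-C (617 to 642), 278 in Huh7 (268 to 289) and 186 in Huh7-C (178 to 194). In CPM it was at 1505 (1448 to 1563), 1789 (1754 to 1825), 515 (497 to 534) and 492 (470 to 514) in the same order. Hep3B-C was the highest library on both scales, and Hep3B went from the lowest library in TPM to the second highest in CPM.

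**Figure D1:**
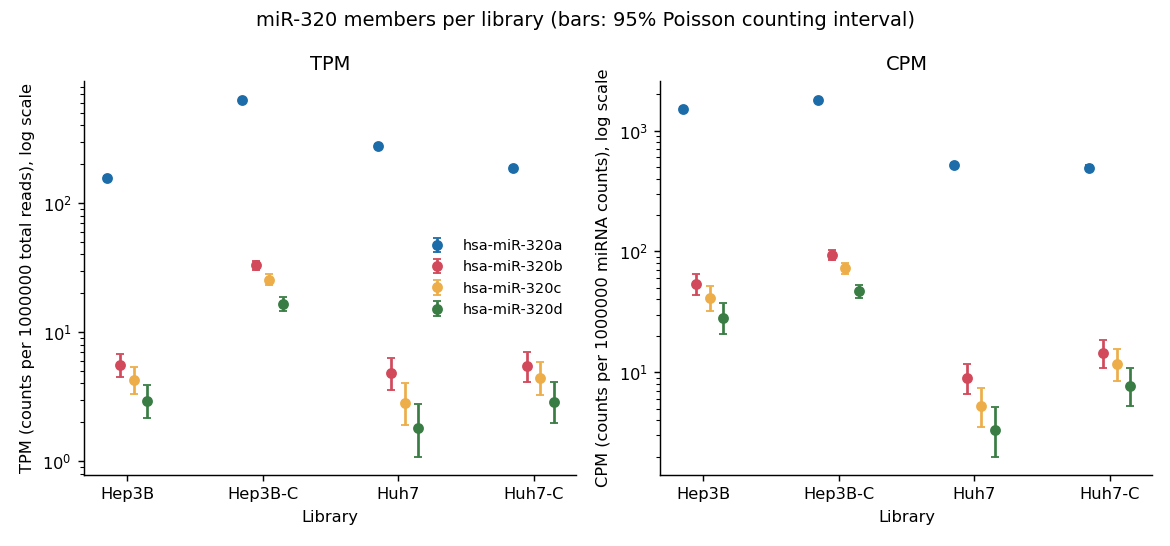
Level of hsa-miR-320a, hsa-miR-320b, hsa-miR-320c and hsa-miR-320d in each library, in TPM (left) and in CPM (right), on log axes, with 95% Poisson counting intervals as bars. On both scales hsa-miR-320a stands far above the other members in each library and Hep3B-C holds the highest point of each member. The place of Hep3B among the libraries depends on the scale for hsa-miR-320a and hsa-miR-320c, and not for hsa-miR-320b and hsa-miR-320d.

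The summed family gave the same picture. It was at 704 TPM in Hep3B-C, 288 in Huh7, 198 in Huh7-C and 169 in Hep3B, and no pair of neighbours in this order had overlapping counting intervals. The nearest of these were Huh7-C and Hep3B, at a ratio of 1.18 (1.11 to 1.24). As a share of all miRNA counts, the family made up 0.200% in Hep3B-C (0.196% to 0.204%), 0.163% in Hep3B (0.157% to 0.169%), 0.0532% in Huh7 (0.0514% to 0.0552%) and 0.0525% in Huh7-C (0.0503% to 0.0548%). The latter 2 libraries did not differ beyond counting error (ratio of Huh7 to Huh7-C 1.01, interval 0.959 to 1.07). On this scale Hep3B was 3.06-fold (2.90 to 3.22) above Huh7 and Huh7-C was at 0.262 (0.250 to 0.275) of Hep3B-C, so both libraries of the Hep3B line stood above both of the Huh7 line. In TPM, Hep3B was at 0.586 (0.557 to 0.617) of Huh7, so the order of the HCC lines turned with the scale, while Huh7-C remained below Hep3B-C at 0.282 (0.269 to 0.295).

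Between Hep3B-C and Hep3B, the family was 4.17-fold higher in TPM in the HCSCs, a log2 ratio of 2.06 (95% exact binomial counting interval 2.00 to 2.12). Log2 ratios were computed with 0.5 counts added to each count. For single members the log2 ratio of TPM was 2.01 for hsa-miR-320a (1.95 to 2.08), 2.56 for hsa-miR-320b (2.25 to 2.90), 2.58 for hsa-miR-320c (2.22 to 2.97) and 2.48 for hsa-miR-320d (2.05 to 2.97). All 4 members with at least 10 counts in a library of the pair were thus at least 2-fold higher in Hep3B-C, and none was 2-fold lower. Of the 475 miRNAs with such counts, 66.5% were 2-fold higher and 5.05% were 2-fold lower, so that most miRNAs stood with the family. The median log2 ratio of TPM over the 475 was 1.42, and that over the 4 members was 2.52. Relative to the median of all miRNAs, the family was 0.64 higher on the log2 scale, hsa-miR-320a was 0.59 higher and the other members were between 1.06 and 1.16 higher. In rank, 165 of the 475 miRNAs had a larger ratio than hsa-miR-320a, and 109 had a larger ratio than hsa-miR-320c.

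In CPM, the difference in the Hep3B pair was smaller. The family's log2 ratio was 0.30 (0.24 to 0.36), which is 1.23-fold, and that of hsa-miR-320a was 0.25 (0.19 to 0.31). hsa-miR-320b was at 0.80 (0.48 to 1.14), hsa-miR-320c at 0.82 (0.46 to 1.21) and hsa-miR-320d at 0.72 (0.29 to 1.20). On this scale 0 of the 4 members were 2-fold higher or lower, against 19.4% of all miRNAs tested that were 2-fold higher and 25.1% that were 2-fold lower. The miRNA share of total reads was 10.4% in Hep3B and 35.2% in Hep3B-C. It moved with the TPM levels, and dividing by miRNA counts left the members above 0 but under 2-fold.

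Between Huh7-C and Huh7, the abundant member and the minor members went apart. hsa-miR-320a was lower in Huh7-C, with a log2 ratio of TPM of -0.58 (-0.67 to -0.50), and as the bulk of the family it brought the summed ratio to -0.54 (-0.62 to -0.46). hsa-miR-320b, in contrast, had a log2 ratio of 0.17 (-0.39 to 0.74), hsa-miR-320c of 0.63 (-0.06 to 1.35) and hsa-miR-320d of 0.68 (-0.18 to 1.60), and the intervals of these 3 included 0. None of the 4 members was 2-fold higher or lower, against 7.42% of the 431 miRNAs tested that were 2-fold higher and 37.4% that were 2-fold lower. The median log2 ratio of TPM was -0.66 over all 431 and 0.40 over the 4 members. Relative to the median of all miRNAs, hsa-miR-320a was 0.08 higher and hsa-miR-320b, hsa-miR-320c and hsa-miR-320d were 0.84, 1.29 and 1.34 higher on the log2 scale.

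In CPM, hsa-miR-320a did not differ beyond counting error between Huh7-C and Huh7, with a log2 ratio of -0.07 (-0.15 to 0.02). The ratios of the minor members were 0.69 for hsa-miR-320b (0.12 to 1.26), 1.14 for hsa-miR-320c (0.46 to 1.86) and 1.20 for hsa-miR-320d (0.34 to 2.12). With 2 of the 4 members, hsa-miR-320c and hsa-miR-320d, the difference was then at least 2-fold, against 15.3% of all miRNAs tested, and 0 members were 2-fold lower, against 24.4%. These 2 rest on no more than 47 counts in a library.

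With library sizes estimated from the bulk of the miRNAs, the family log2 ratio in the Hep3B pair was 0.65 (TMM) and 0.88 (DESeq2 size factors), between those of the 2 scales. In that pair 3 of the 4 members (hsa-miR-320b, hsa-miR-320c and hsa-miR-320d) were 2-fold higher with TMM library sizes, against 25.5% of all miRNAs tested, and the same number with DESeq2 size factors, against 29.5%. None was 2-fold lower, against 17.7% and 14.5%. In the Huh7 pair 0 members were 2-fold higher with TMM (all miRNAs 11.6%) and 2 with DESeq2 size factors (all miRNAs 16%), and 0 were 2-fold lower (all miRNAs 28.3% and 23%). The ratio of the summed family, below 0 on the other scales, was -0.22 with TMM and 0.036 with DESeq2 size factors (-0.045 to 0.116), so that with DESeq2 size factors no difference beyond counting error was seen in the Huh7 pair.

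**Figure D2:**
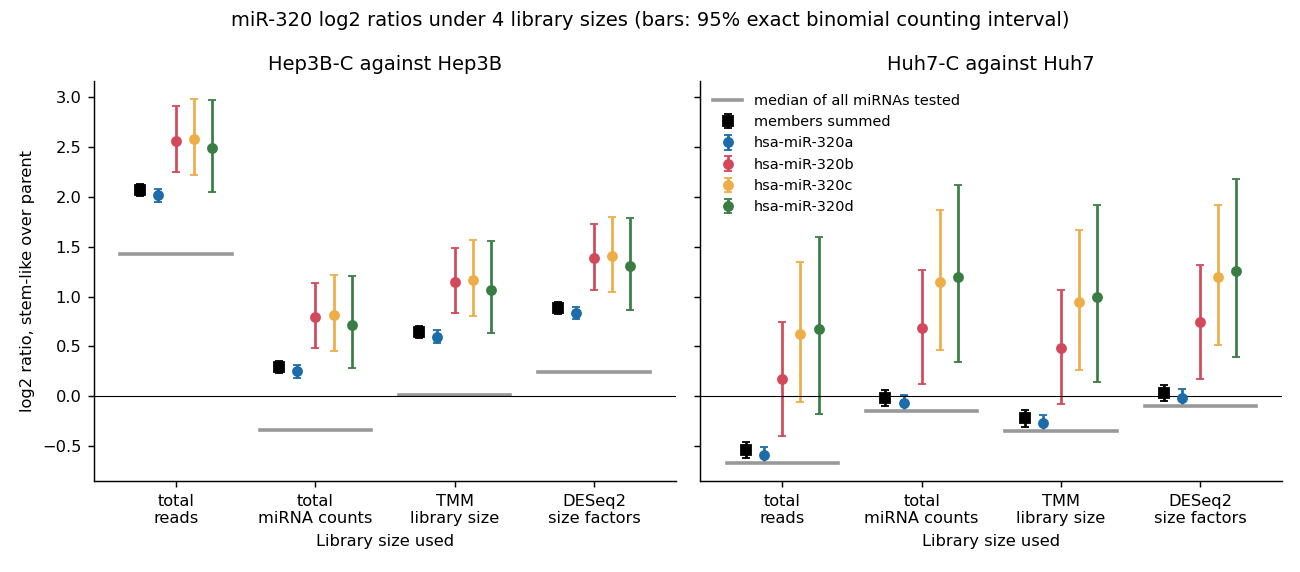
Log2 ratio of each HCSC line over its HCC line for the summed members and for hsa-miR-320a to hsa-miR-320d, under 4 library sizes, with 95% exact binomial counting intervals as bars and the median of all tested miRNAs as a grey line. The heights move with the library size (from 2.06 to 0.30 for the sum in the Hep3B pair). In both pairs hsa-miR-320b, hsa-miR-320c and hsa-miR-320d are above hsa-miR-320a. A library size shifts all ratios of a pair alike, so this order cannot change with it.

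**Figure D3:**
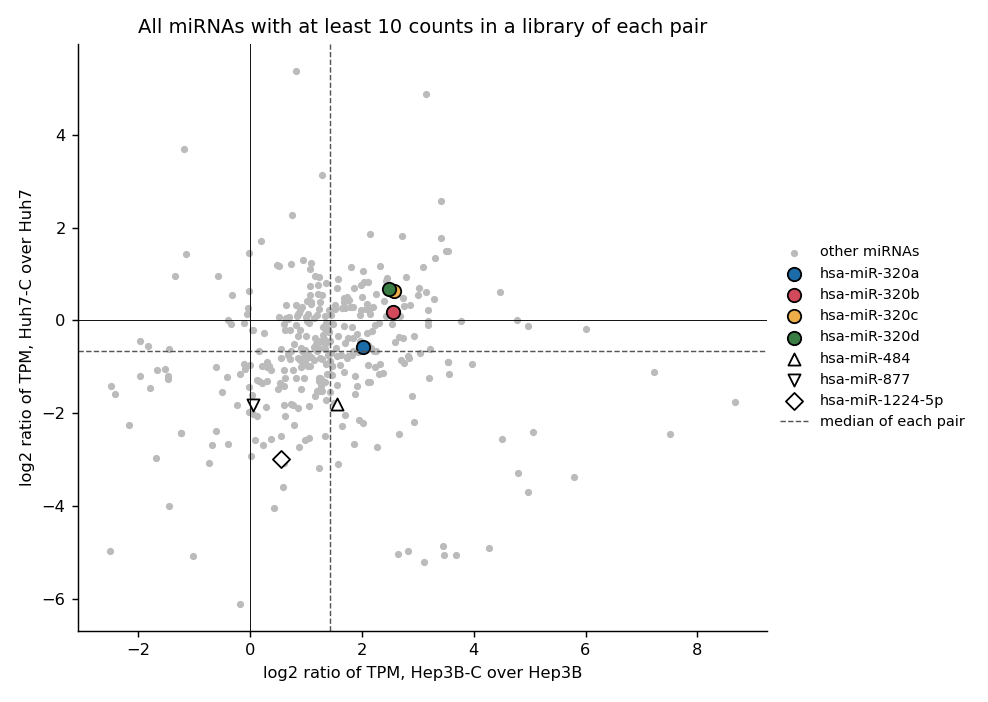
Log2 ratio of TPM in the Hep3B pair (horizontal) and in the Huh7 pair (vertical) for the 359 miRNAs with at least 10 counts in a library of each pair, 1 point per miRNA, with dashed lines at the median of each pair. The 4 members lie to the right of and above both medians, hsa-miR-320a nearest to them, and hsa-miR-484, hsa-miR-877 and hsa-miR-1224-5p lie below the median of the Huh7 pair.

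The ratio of one member to another within a library does not depend on the library size, but it can depend on how reads that match several members had been assigned, reads of hsa-miR-320a included, and this was not tested. For every 100 counts of hsa-miR-320a, hsa-miR-320b, hsa-miR-320c and hsa-miR-320d together had 8.14 counts in Hep3B (95% exact binomial interval 7.04 to 9.36) and 11.9 in Hep3B-C (11.2 to 12.6). They had 3.38 in Huh7 (2.74 to 4.13) and 6.84 in Huh7-C (5.70 to 8.14). The minor members thus had 1.46 times as many counts per count of hsa-miR-320a in Hep3B-C as in Hep3B (conditional interval 1.25 to 1.71). In Huh7-C they had 2.02 times as many as in Huh7 (1.54 to 2.66).

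Each minor member differed in the same direction. In the Hep3B pair the fold was 1.47 for hsa-miR-320b (1.17 to 1.86), 1.49 for hsa-miR-320c (1.15 to 1.95) and 1.40 for hsa-miR-320d (1.02 to 1.94). In the Huh7 pair it was 1.69 (1.14 to 2.52), 2.33 (1.44 to 3.83) and 2.43 (1.32 to 4.56) in the same order. The 3 members share most of their bases and are not separate measurements. This ratio was taken up after the counts had been seen, so its intervals describe counting error in these libraries and lend the difference no support. The HCC lines differed as well, with Huh7 at 0.416 (0.322 to 0.533) of the Hep3B ratio, and Huh7-C was at 0.576 (0.475 to 0.693) of the Hep3B-C ratio.

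The minor members were also compared among themselves. hsa-miR-320c had 0.763 counts for each count of hsa-miR-320b in Hep3B (0.553 to 1.05), 0.775 in Hep3B-C (0.678 to 0.886), 0.588 in Huh7 (0.362 to 0.941) and 0.810 in Huh7-C (0.540 to 1.21). For hsa-miR-320d the ratios to hsa-miR-320b were 0.527 (0.365 to 0.753), 0.501 (0.429 to 0.584), 0.373 (0.208 to 0.642) and 0.534 (0.334 to 0.841). The intervals of the 4 libraries overlapped for both members. Huh7, with the fewest counts of these members, had the lowest ratio of each.

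**Figure D4:**
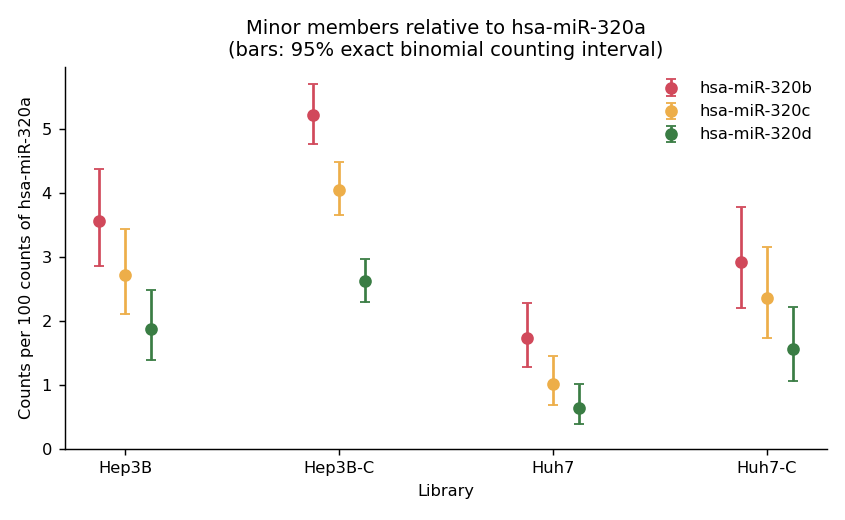
Counts of hsa-miR-320b, hsa-miR-320c and hsa-miR-320d per 100 counts of hsa-miR-320a in each library, with 95% exact binomial counting intervals as bars. Each minor member is higher in Hep3B-C than in Hep3B and higher in Huh7-C than in Huh7, and hsa-miR-320b is above hsa-miR-320c and hsa-miR-320c above hsa-miR-320d in every library.

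Of 14 other mature miRNAs listed for hairpins described as made without Drosha cleavage, 4 had at least 10 counts in a library, 4 had at most 2 counts, and 6 were at 0 in all libraries. hsa-miR-484 is the closest relative by route, since its hairpin also begins at a capped transcription start. It had 37 counts in Hep3B and 101 in Hep3B-C, against 60 in Huh7 and 17 in Huh7-C. Its log2 ratio of TPM was 1.56 in the Hep3B pair (1.01 to 2.15), which is 0.13 above the median of all miRNAs. In the Huh7 pair it was -1.80 (-2.70 to -1.04), which lies below the median, where hsa-miR-320a was at -0.58 (-0.67 to -0.50).

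The remaining 3 are mirtrons, hairpins that splicing releases from short introns. hsa-miR-877 had 206 counts in Hep3B and 196 in Hep3B-C, against 26 in Huh7 and 7 in Huh7-C. hsa-miR-1224-5p had 157, 211, 98 and 12 counts in the same order, and hsa-miR-1226* had 9, 16, 4 and 9. In the Hep3B pair the log2 ratio of TPM was 0.05 for hsa-miR-877 (-0.24 to 0.34) and 0.55 for hsa-miR-1224-5p (0.24 to 0.85), both under the median of 1.42 and under all 4 miR-320 members. For hsa-miR-1226* the ratio was 0.92 (-0.31 to 2.31). In CPM these ratios turned negative in the Hep3B pair, at -1.71, -1.22 and -0.85, and that of hsa-miR-484 was -0.21. The intervals of hsa-miR-1226* (-2.08 to 0.55) and hsa-miR-484 (-0.75 to 0.39) included 0. The median of all miRNAs tested was also negative on this scale, at -0.34. hsa-miR-484 lay above that median, and the intervals of hsa-miR-877 and hsa-miR-1224-5p lay below it. All 4 tested miR-320 members stayed above 0. In the Huh7 pair the log2 ratio of TPM was -1.83 for hsa-miR-877 (-3.35 to -0.66) and -2.99 for hsa-miR-1224-5p (-4.04 to -2.17), again under those of the members. Of the 4 listed miRNAs tested in the Hep3B pair, 1 was 2-fold higher in TPM and 0 were 2-fold lower (median log2 ratio 0.73), against 66.5% and 5.05% of all miRNAs tested. Of the 3 tested in the Huh7 pair, all 3 were 2-fold lower (median -1.83), against 37.4% of all. hsa-miR-1226* was under the minimum of 10 counts in the Huh7 pair, where its log2 ratio was 1.07 (-0.68 to 3.31).

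The profile over the 4 libraries was compared with that of 129 other miRNAs with at least 100 counts in each library. As the measure, log2 TPM was centred on its mean over the 4 libraries, and the root mean square difference from the summed family was taken. The nearest was hsa-miR-423-5p, at 0.054, with 3036 counts in Hep3B and 10950 in Hep3B-C, against 2975 in Huh7 and 2090 in Huh7-C. Its counts were thus close to those of the summed family (2831, 10871, 3057 and 2125) in level as well as in pattern. hsa-miR-182 followed at 0.16, hsa-miR-17* at 0.22, hsa-miR-26b at 0.29 and hsa-miR-628-5p at 0.31, against a median of 0.97 over the 129. hsa-miR-320a was at 0.041 from the sum to which it contributes most. hsa-miR-320b, hsa-miR-320c and hsa-miR-320d were farther, at 0.54, 0.69 and 0.71. The 5 named miRNAs were picked as the nearest of the 129, and the sum is mostly hsa-miR-320a. That they lay nearer than the minor members was thus largely set by that choice and is not read as a result. hsa-miR-484 was at 0.50, hsa-miR-1226* at 0.72, hsa-miR-1224-5p at 1.22 and hsa-miR-877 at 1.63. These miRNAs and the minor members had under 100 counts in some libraries, below the minimum set for the 129. Their distances therefore hold more counting error than those of the 129. With 4 libraries these distances describe the libraries and carry no test.

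**Figure D5:**
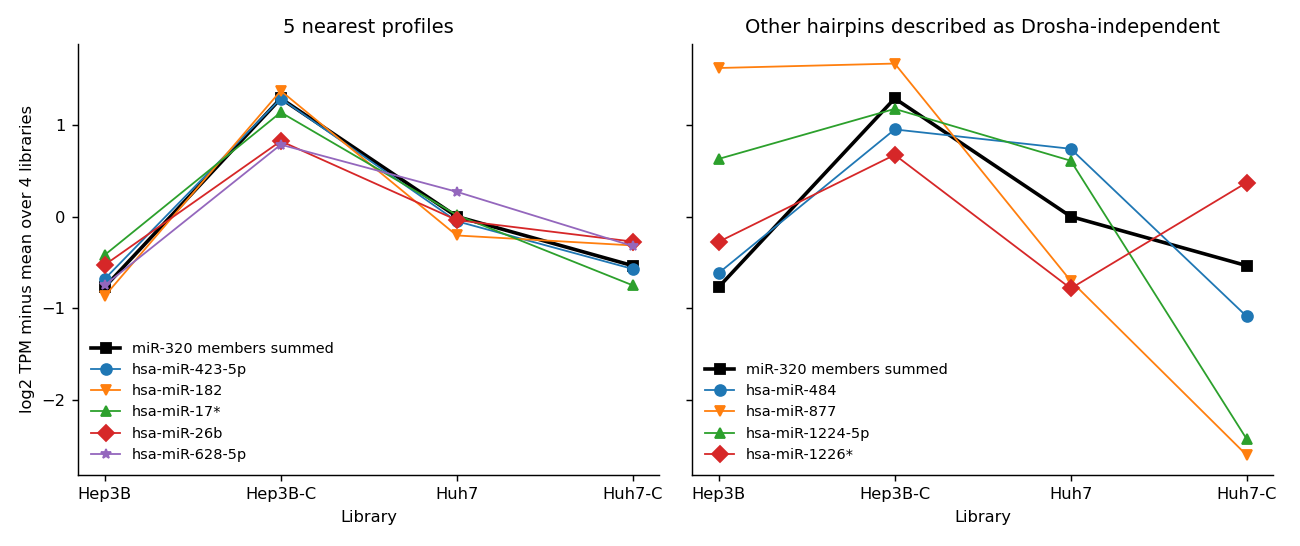
Log2 TPM minus its mean over the 4 libraries for the summed miR-320 members (black squares) with the 5 nearest profiles (left) and with 4 other miRNAs from hairpins described as Drosha-independent (right); lines only join the points of 1 miRNA. hsa-miR-423-5p lies on the family (difference 0.054), whereas hsa-miR-877 and hsa-miR-1224-5p are highest against the family in Hep3B and lowest in Huh7-C.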

How the data were processed

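Small RNA of 4 cell lines was sequenced by the authors on an Illumina Genome Analyzer II. After removal of contaminant and redundant reads and of reads under 18 nt, reads were mapped to NCBI Build 36.1 with SOAP, other small RNA classes were set aside and the remainder was searched against miRBase release 17. The authors deposited raw counts of 1733 miRNAs per library, without normalization, 1 library per file. TPM was computed here from these counts and the total reads that the study lists per library, and CPM from the summed miRNA counts. Log2 ratios had 0.5 counts added to each count, and a miRNA needed 10 counts or more in at least 1 library of the pair. Counting intervals (95%) are Poisson for levels, Clopper-Pearson for shares, exact binomial for ratios of 2 counts and conditional for ratios of ratios. A floor of 3 counts was used for a count of 0. Libraries were grouped by their cell line label.

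In place of total reads, library sizes from the summed miRNA counts, TMM (edgeR 4.0.16) and DESeq2 1.42.0 size factors were tried, as were other count minimums and no added counts. The named miRNAs were the 5 members, the listed hairpins with at least 10 counts in a library and the 5 nearest profiles. The members and lists were chosen with earlier results of these data known. The comparison of minor members per count of hsa-miR-320a, and the miRNA sharing their seed, were taken up after the counts were seen. The ratio and interval code was tested on simulated data. Positions and sequences come from RefSeq (GRCh38.p14) and gene overlaps from GENCODE release 29 (GRCh38), and no coordinate was converted. Computations used Python 3.11.15 with scipy 1.17.1 and R 4.3.3. The mRNA libraries were not analysed here.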

Additional observations from a re-analysis of the deposited data

Results flagged for a closer look

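The summed miR-320 family was higher in the HCSCs of one line and lower in those of the other, with a log2 ratio of TPM of 2.06 for Hep3B-C over Hep3B and -0.54 for Huh7-C over Huh7. hsa-miR-320a, which makes up most of the sum, did the same, at 2.01 and -0.58. This difference between the lines was not tested, and it rests on 1 library per condition. The median of all miRNAs tested also had opposite signs in the pairs (1.42 and -0.66), and relative to it hsa-miR-320a was 0.59 and 0.08 higher.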

How the results depend on the processing

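Library size moved the ratios most. For the summed family the log2 ratio in the Hep3B pair was 0.30 with total miRNA counts, 0.65 with TMM and 0.88 with DESeq2 size factors, against 2.06 with total reads. In the Huh7 pair it was -0.019, -0.22 and 0.036 in the same order, against -0.54, and the counting intervals with total miRNA counts (-0.100 to 0.061) and with DESeq2 size factors (-0.045 to 0.116) included 0. At least 2-fold higher in Hep3B-C were 0 members with total miRNA counts (all miRNAs 19.4%), 3 with TMM (25.5%) and 3 with DESeq2 size factors (29.5%), against 4 with total reads (66.5%). In Huh7-C they were 2 with total miRNA counts (15.3%) and 2 with DESeq2 size factors (16%), against 0 (7.42%). Without a minimum of counts, 1 member (hsa-miR-320e, on 1 count in Hep3B) was counted as 2-fold lower in Hep3B-C. The share of all miRNAs was not computed for that setting, so this count is not read as a result. Of 71 alternative values, 46 stayed within the counting interval or within 1.5 times a count, and no value that was past 2-fold changed sign. Some of the 46 could hardly move, such as those of hsa-miR-320e, whose interval has no lower limit. The 46 also hold hsa-miR-320c and hsa-miR-320d in the Huh7 pair. Their log2 ratios passed 2-fold with total miRNA counts (0.63 to 1.14 and 0.68 to 1.20). The share of hsa-miR-320a was recomputed only without hsa-miR-320e, which has 1 count in all and so could hardly move it. The ratio of the minor members to hsa-miR-320a was taken up after seeing the data. No test with the parent line as a block was run over the 2 pairs, because the members were selected on counts of these libraries. At this depth hsa-miR-320e could not be measured, and differences of the minor members in the Huh7 pair rest on 19 to 58 counts.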
